A study of Mus musculus with 13 samples.

Results

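The genes described here are 9 protein-coding neighbours of Gpr151 on mouse chromosome 18, followed through translating mRNA of medial habenula neurons with and without Gpr151. They were taken by symbol from 23857 symbols counted in all 12 immunopurified libraries: Trim36, Ccdc112, Ppp2r2b, Tnfaip8, Myot, Stk32a, Dpysl3, Jakmip2 and Rbm27. All lie within 10 Mb of Gpr151 and none belongs to the clustered protocadherins of the same chromosome. The first 5 were picked because their p-value between the genotypes was small in these same libraries, and the last 4 as neighbours for comparison. Their genotype values are therefore a description, without a test.

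Gpr151 is an orphan G protein-coupled receptor concentrated in the habenula, a small epithalamic nucleus whose medial part holds cholinergic neurons with nicotinic receptors. Genes that lie close together on a chromosome are inherited together, so animals selected for an allele of one gene also carry the alleles of its near neighbours from the same chromosome. The 9 neighbours were not chosen for a shared function. They include a ubiquitin ligase, a phosphatase subunit, a kinase, cytoskeletal proteins and an RNA-binding protein.

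All mice were adult (over 8 weeks) and carried the transgene Chat-TRAP DW167, which places a GFP-tagged ribosomal protein in cells that use the promoter of Chat, the acetylcholine-synthesizing enzyme. Ribosomes were pulled down with anti-GFP beads from dissected medial habenula (translating ribosome affinity purification; the pulled-down fraction is called IP). The 6 wild-type IP libraries, numbered 682, 852 and 1091 to 1094, came from mice with this transgene alone, and the 6 knockout IP libraries, numbered 683, 855 and 1099 to 1102, from Gpr151-KO mice with the same transgene. A single wild-type library, 824, was made from unpurified homogenate (input). Each library pooled 4 mice, or 3 for 852 and 855. The labels give no sex, strain background or breeding history. They name no treatment either, although saline appears in most table names and saccharin in that of the input.

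Libraries held 28375912 to 64388596 gene counts, so 3 counts, the limit that a count of 0 allows, equalled 0.0466 to 0.106 CPM in the IP libraries (CPM is a gene's counts scaled to the library's total), counting error only. Gpr151 itself checked the labels. It had 360 to 541.8 CPM in the wild-type IP libraries (median 413.9) and 106.2 to 197.7 in the knockout ones (median 125.8), with no overlap. The remaining counts fall on its single annotated exon, and the sources used here do not give the bases that the knockout allele removes. All 14 medial habenula identity markers, among them Chat, Chrna3 and Tac2, were above 0 in all 12 IP libraries. Their summed level was 6163 to 8334 CPM in wild type and 4325 to 8565 in knockout. Markers of other cells were also present and uneven: 8 astrocyte genes summed to 134.3 to 952.5 CPM in wild type and 138 to 1653 in knockout, and 8 oligodendrocyte genes to 136.2 to 718.7 and 180.2 to 1310. Library 1091 of wild type and libraries 1099 and 1102 of knockout had the highest values of both sums, and the summed identity markers were lowest in 1099 and 1102. The 6 genes of GABAergic neurons summed to 14.2 to 151.8 CPM in wild type and 45.7 to 305.6 in knockout, highest in libraries 1099 and 1102. These lists were shifted between genotypes. In the knockout 8 of 8 astrocyte genes (median log2 fold change 0.86), 8 of 8 oligodendrocyte genes (0.79) and 5 of 5 tested GABAergic genes (1.16) were above 0, and 0 of 14 identity genes were (-0.19), with no gene of these lists called by edgeR. The part of this shift in the members' values was not tested beyond the covariate and left-out libraries given beside them. In pooled tissue of this kind, fewer cells of a type and less RNA per cell cannot be told apart.

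On the GRCm38 assembly Gpr151 occupies 42577881 to 42579652 on the minus strand of chromosome 18. Rbm27 was the only one of the 9 at lower coordinates, at 42275353 to 42341542 on the plus strand, and its start lies 0.304 Mb from that of Gpr151. The others follow at higher coordinates. Ppp2r2b (42637432 to 43059471, minus strand) starts 0.480 Mb away, Stk32a (43207583 to 43318682, plus) 0.628 Mb, Dpysl3 (43320984 to 43438286, minus) 0.859 Mb and Jakmip2 (43531407 to 43687773, minus) 1.11 Mb away. Myot (44334074 to 44355724, plus) starts 1.75 Mb away. Trim36 (46165300 to 46212607, minus) and Ccdc112 (46282151 to 46311928, minus) start 3.63 Mb and 3.73 Mb away, and Tnfaip8 (49979427 to 50107173, plus) 7.40 Mb away. The 5 genes picked for a small p-value thus all lie on the higher-coordinate side, and the most distant of them, Tnfaip8, is separated from Gpr151 by genes that were not picked.

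Of the 5 picked genes, 4 had a lower CPM in the knockout IP libraries and 1, Ppp2r2b, had a higher one. These values are shares of the IP RNA, which also held markers of other cells. Which cells the difference in Ppp2r2b came from was not tested. Trim36, Tnfaip8 and Myot did not overlap between the genotypes on the CPM scale of the symbols shared by the 12 IP libraries. For Tnfaip8 this depends on the scale: over the 22682 symbols shared with the input, knockout library 855 had 4.201 CPM and wild-type library 852 had 4.185. Ccdc112 overlapped on the scale of the IP libraries but not on the one shared with the input. Myot overlapped once its CPM were divided by the scaling factors of the edgeR fit (TMM). Of all 14317 genes tested, 0.147% had no overlap between the genotypes in either direction with all 6 knockout libraries above all wild-type ones in 0.0489% and below them in 0.0978%. As these genes were picked on this contrast, nothing is read from their share. No member passed an adjusted p of 0.05 in edgeR, as 0.0140% of all genes did. DESeq2 called 2 of the 9, Trim36 and Ccdc112, beside 0.0838% of all genes. The unadjusted edgeR p-values behind the choice ran from 0.000118 for Trim36 to 0.0140 for Myot, and those of the 4 comparison genes from 0.482 to 0.829. An unadjusted p under 0.01, which 0.503% of all genes had, was reached by 4 of the 9. These calls and p-values are on the contrast used for picking, so nothing is read from them or their shares.

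**Figure D1:**
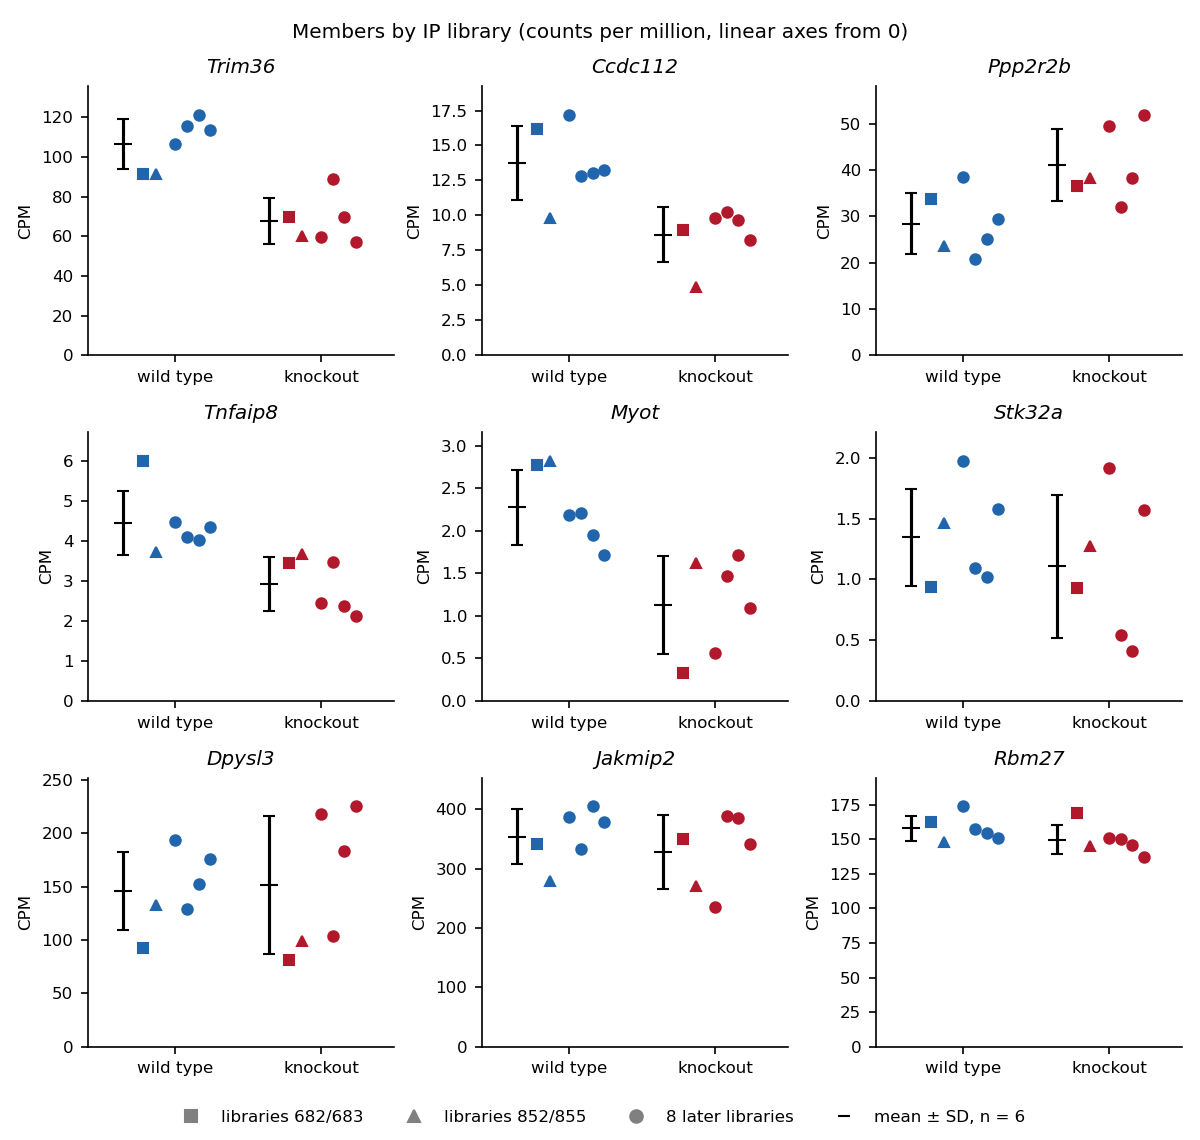
CPM of each of the 9 genes in the 12 IP libraries, by genotype and library set, with the mean and SD of each genotype. Trim36, Tnfaip8 and Myot are the genes whose knockout points all lie below the wild-type points on this scale, which for Tnfaip8 does not hold on the scale shared with the input. For Myot it does not hold after division by the TMM factors of the edgeR fit. Ccdc112 overlaps here but not on the scale shared with the input.

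Trim36 encodes a RING-type E3 ubiquitin ligase of the tripartite motif family that associates with microtubules. It had 91.2 to 121.2 CPM in the wild-type libraries (median 110) and 57.2 to 88.9 in the knockout ones (median 65.0). The genotypes came closest at knockout library 1100, with 88.9 CPM, and wild-type library 852, with 91.2. Means were 106.6 ± 12.7 (SD, n = 6) in wild type and 67.6 ± 11.7 (SD, n = 6) in knockout, and the fitted log2 fold change was -0.63 ± 0.11 (SE). With 1936 to 6245 reads per library, counting error was small beside the spread between libraries.

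Ccdc112, a coiled-coil protein gene, lies close beside Trim36. Its wild-type libraries had 9.83 to 17.2 CPM (median 13.2) and its knockout libraries 4.85 to 10.3 (median 9.29). Of the 6 knockout libraries, 4 were below every wild-type library, and the overlap came from the single wild-type library 852 at 9.83 CPM. Its counterpart in the same library set, knockout library 855, held the lowest value of all. The overlap depends on the scale. Over the symbols shared with the input, wild-type library 852 had 11.07 CPM and knockout library 1100, the highest, had 10.98. The genotypes did not overlap on that scale. The log2 fold change was -0.67 ± 0.14 (SE).

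Ppp2r2b encodes the beta isoform of the B regulatory subunit of protein phosphatase 2A (PP2A), which is enriched in brain and directs the phosphatase to its substrates. It had 20.7 to 38.4 CPM in the wild-type libraries (median 27.2) and 32.0 to 51.95 in the knockout ones (median 38.3). Only 2 knockout libraries, 1099 at 49.5 and 1102 at 51.95, lay above every wild-type library, and the highest wild-type value, 38.4, was in library 1091. These are the 3 libraries with the most astrocyte and oligodendrocyte marker RNA. The log2 fold change was 0.56 ± 0.18 (SE). It was 0.45 without those 3 libraries, and 0.36 with the mean log2 CPM of the non-neuronal markers as a covariate. The part of these markers in the rest of the difference was not tested.

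Tnfaip8 encodes a member of the TIPE family, proteins tied to phospholipid signalling, cell survival and inflammation. It was a low transcript, with 104 to 260 reads per wild-type library. Wild type had 3.72 to 6.003 CPM (median 4.22) and knockout 2.13 to 3.67 (median 2.95). The genotypes nearly met at libraries 852, with 3.72 CPM, and 855, with 3.67 CPM, which belong to the same set. The log2 fold change was -0.58 ± 0.18 (SE). Its annotated exons share 12.7% of their bases with the antisense transcript C030005K06Rik, which was listed in the input table but not in the IP tables, and reads of the pair cannot be told apart without knowing whether counting used strand.

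Myot encodes myotilin, a protein of the Z-disc of striated muscle. It was near the lower end of what these libraries measure, with 76 to 127 reads per wild-type library and 15 to 94 per knockout library. Wild type had 1.72 to 2.82 CPM (median 2.19) and knockout 0.333 to 1.72 (median 1.28). Knockout library 683 had the fewest, 15 reads, or 0.333 CPM with a 95% exact Poisson interval of 0.186 to 0.549, and library 1099 had 28. The boundary between genotypes was set by wild-type library 1094 at 1.719 CPM and knockout library 1101 at 1.717, a gap within counting error. Divided by their TMM factors, 1.0141 and 1.01, these values change order, so the genotypes overlap on that scale. The log2 fold change was -1.06 ± 0.37 (SE), and -0.74 without libraries 682 and 683, which the set term makes a pair: leaving out either one removes both from the genotype estimate. The 10 skeletal muscle genes examined beside it summed to 9.65 to 12.4 CPM in wild type and 8.63 to 11.6 in knockout. Ldb3 was the highest of them, at up to 7.90 CPM, and 3 of the 10 were at 0 in at least 1 library.

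The 4 comparison genes overlapped between genotypes. Jakmip2, which encodes a coiled-coil protein of the family that binds microtubules and Janus kinases, had 278.9 to 404.5 CPM in wild type (median 359.4) and 235.2 to 389.0 in knockout (median 345.2). Its lowest value was in library 1099, the library with the lowest sum of habenula markers. Rbm27, an RNA-binding protein, was the steadiest of the 9, with 147.7 to 173.7 CPM in wild type (median 155.7) and 137.4 to 169.2 in knockout (median 147.9). Their log2 fold changes were -0.09 ± 0.12 and -0.05 ± 0.09 (SE), with 95% intervals of -0.34 to 0.17 and -0.24 to 0.13.

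Dpysl3 encodes CRMP4, a collapsin response mediator protein that acts on the cytoskeleton of growing axons. It had 92.2 to 193.5 CPM in wild type (median 142.5) and 81.8 to 225.3 in knockout (median 143.9). Its highest values were 225.3 in library 1102, 218.4 in library 1099 and 193.5 in library 1091, the same 3 libraries that lead for glial markers. The log2 fold change was 0.04 ± 0.20 (SE), with an interval of -0.39 to 0.48. It was -0.18 without those libraries. Stk32a, a serine/threonine kinase, had only 19 to 115 reads per library, or 0.940 to 1.98 CPM in wild type (median 1.28) and 0.408 to 1.92 in knockout (median 1.10). Libraries 1091 and 1099 had its highest values, 1.98 and 1.92, and library 1102, at 1.57, came just after wild-type library 1094, at 1.58. Its log2 fold change of -0.24 ± 0.41 (SE) became -0.78 without libraries 1091, 1099 and 1102, and -0.67 with the marker covariate, while it was -0.05 without knockout library 1101 and -0.08 without knockout library 1100. Its size thus depends on single libraries in both directions.

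**Figure D2:**
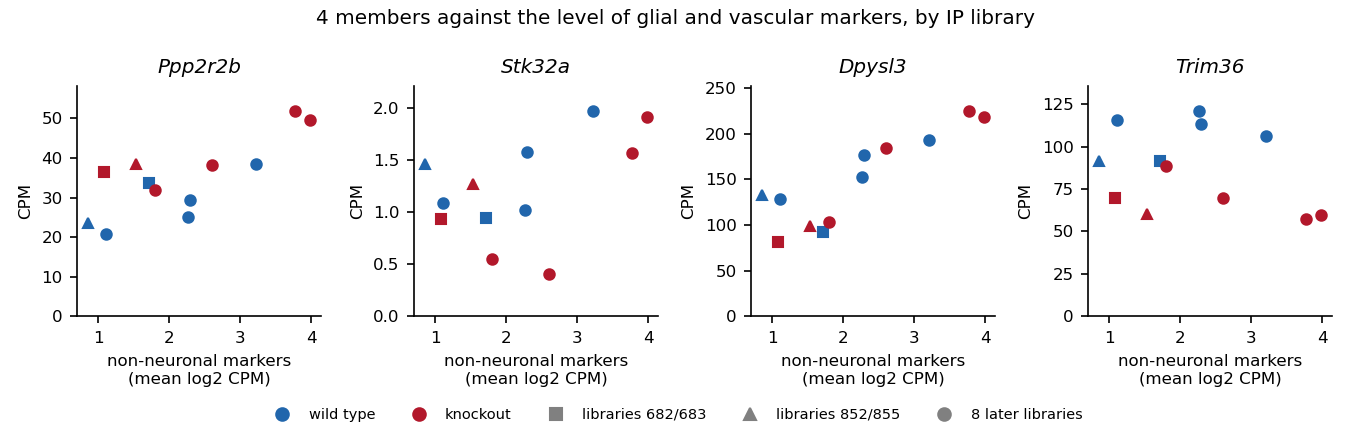
CPM of Ppp2r2b, Stk32a, Dpysl3 and Trim36 against the mean log2 CPM of glial and vascular markers, 1 point per IP library, coloured by genotype and shaped by library set. Libraries 1099, 1102 and 1091 sit at the right, where Ppp2r2b and Dpysl3 also have their highest values.

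With the marker covariate, the 4 genes that were lower in the knockout moved less than Ppp2r2b did. Trim36 had -0.55, Ccdc112 -0.70, Tnfaip8 -0.55 and Myot -1.02 on the log2 scale, against -0.63, -0.67, -0.58 and -1.06 in the model without it. Without the 3 libraries the values were -0.54, -0.64, -0.47 and -0.94. On this second check Trim36, Tnfaip8 and Myot moved about as far as Ppp2r2b, which went from 0.56 to 0.45.

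The libraries fall into 3 sets by number, each holding both genotypes: 682 with 683, 852 with 855, and the 8 libraries from 1091 to 1102. All 5 picked genes had the same sign in the 3 sets on this CPM scale, as did 23.8% of all tested genes. The sets make up the contrast the genes were picked on, so nothing is read from this. Tnfaip8 turns sign in the set of 852 and 855 on the scale shared with the input. Trim36 differed by -0.39, -0.60 and -0.73 on the log2 scale in the order of these sets, and Ccdc112 by -0.86, -1.02 and -0.57. Ppp2r2b differed by 0.12, 0.71 and 0.60, so it was close to equal in the first set. Tnfaip8 differed by -0.80, -0.02 and -0.70, with almost no difference between libraries 852 and 855. Myot differed by -3.06, -0.80 and -0.74, the first value resting on the 15 reads of library 683. The first 2 sets have 1 library per genotype and no replicate check. Of the comparison genes, Stk32a was below 0 in all 3 sets (-0.01, -0.20 and -0.35), while Dpysl3, Jakmip2 and Rbm27 changed sign between sets.

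**Figure D3:**
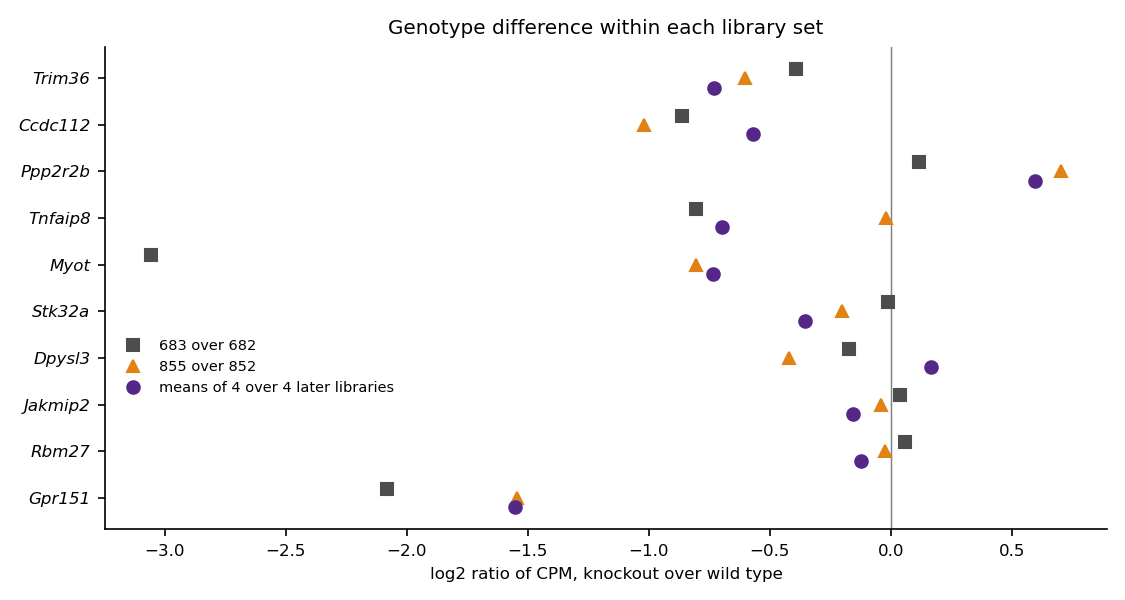
Log2 ratio of knockout to wild-type CPM for each gene within the 3 library sets; the 8 later libraries are compared by their means, 4 over 4. On this CPM scale Tnfaip8 in the set of 852 and 855 lies at -0.02, a sign that turns on the scale shared with the input, and Myot in the set of 682 and 683 at -3.06.

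Whether the genotype difference itself differed between the 8 later and 4 earlier libraries was tested as an interaction in edgeR. No member passed, with adjusted p of 1 for each of the 9. Of all genes 0% passed, and 2.27% had an unadjusted p under 0.05. The intervals were wide. For Myot the difference was smaller in the later libraries by 1.17 on the log2 scale, with a 95% interval of -0.49 to 2.83, and for Trim36 the interaction was -0.20, with -0.75 to 0.34. The value for Myot rests on the earlier libraries: it was 0.07 without library 682, 0.08 without 683, and 2.33 without 852 or 855. That for Trim36 was -0.11 without 682 or 683, -0.31 without 852 or 855, -0.13 without 1102 and -0.33 without 1100.

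The contrast of later with earlier libraries was not used in choosing the members. Dpysl3 was the only member past the threshold, and it was higher in the later libraries by 0.76 ± 0.22 (SE) on the log2 scale (edgeR, adjusted p = 0.0304), where 23.3% of all genes were called, 13.3% higher and 10.0% lower. In wild type it had 92.2 and 132.6 CPM in the earlier libraries and 128.8 to 193.5 in the later ones. In knockout it had 81.8 and 99.0 CPM in the earlier libraries and 103.8 to 225.3 in the later ones, so the sets overlapped in wild type but not in knockout. With the marker covariate the value was 0.23 (edgeR, adjusted p = 0.551), and without libraries 1091, 1099 and 1102 it was 0.52 (adjusted p = 0.0534). It also missed the threshold without any 1 of libraries 682, 683, 852, 855 or 1102, with adjusted p of 0.0512 to 0.164. The other 8 members had later-minus-earlier values from -0.35 for Tnfaip8 to 0.31 for Ccdc112, with adjusted p of 0.131 to 0.892. Earlier and later tables list different numbers of symbols, so gene models and material cannot be told apart in this contrast.

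The input shows how each neighbour's share of the IP RNA compared with its share of the whole dissected tissue. Jakmip2 and Trim36 were enriched in the IP: with 1 CPM added to each side, all 6 wild-type IP libraries reached 2 times the input or more, as was so for 4.71% of the 11434 genes that met the minimum of 5 CPM. On the scale of the 22682 symbols shared by all 13 libraries, Trim36 had 36.5 CPM in the input and 102.7 to 131.0 in the wild-type IP libraries, a median log2 ratio of 1.65. Jakmip2 had 110.9 CPM in the input and 313.9 to 436.9 in the IP, a median of 1.82. For Gpr151 the median was 2.79.

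Ppp2r2b was depleted, with 119.7 CPM in the input and 22.5 to 39.4 in the wild-type IP libraries, a median log2 ratio of -1.98. Of all genes, 11.1% were depleted by this rule. Ccdc112, Rbm27, Dpysl3 and Tnfaip8 were neither, with medians of 0.58, 0.24, 0.08 and -0.24. Myot, at 0.76, and Stk32a, at -1.05, were under the minimum level and were not classed. In the knockout IP libraries set against the same input, Trim36 had a median of 0.97 and was no longer enriched in every library, while Ppp2r2b was at -1.47 and stayed depleted. There is 1 input library, so these ratios have no replicate check on that side, and IP and input tables differ in their symbols.

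**Figure D4:**
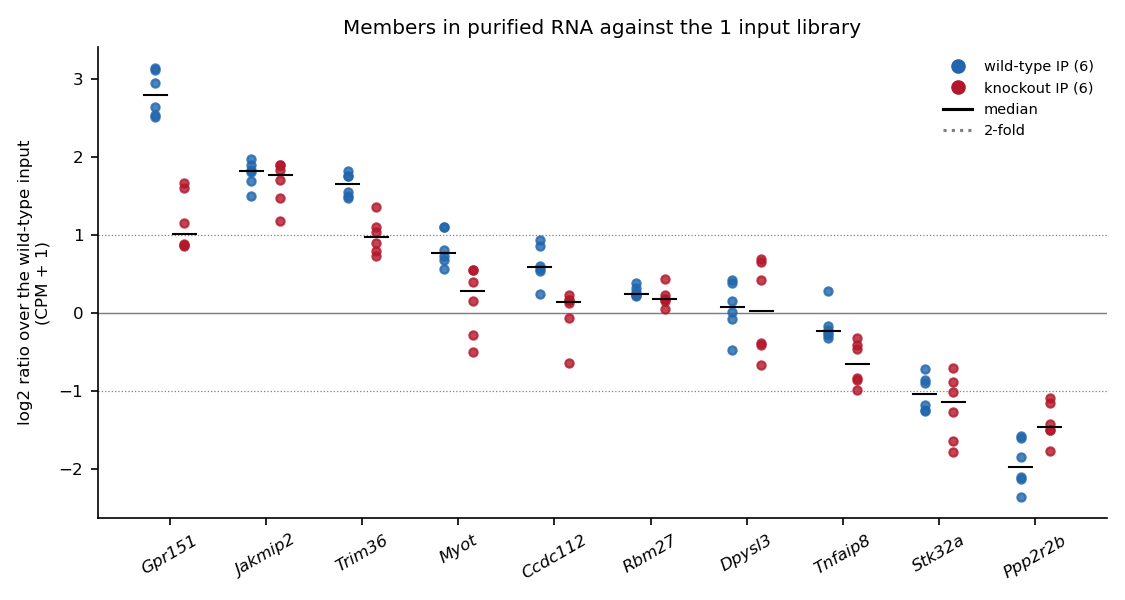
Log2 ratio of IP to input CPM for each gene, 1 point per IP library, wild type and knockout apart, all against the same input library. Jakmip2 and Trim36 lie above 1 in wild type, and Ppp2r2b lies below -1 in both genotypes.

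Scaled by the annotated exon length, the wild-type IP level was highest for Jakmip2, at 32.9 ± 4.27 CPM per kb (SD, n = 6). Rbm27 at 23.8 ± 1.40, Dpysl3 at 22.1 ± 5.49 and Trim36 at 21.6 ± 2.58 followed and did not differ beyond their spread. Ppp2r2b had 7.14 ± 1.68, Ccdc112 3.07 ± 0.590, Myot 1.03 ± 0.200, Tnfaip8 0.430 ± 0.0783 and Stk32a 0.163 ± 0.0486 CPM per kb. Gpr151 stood well above all of them, at 246.4 ± 44.5.

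The genes next to the members were examined by position. Pggt1b, which encodes a subunit of a protein prenyltransferase, starts between Trim36 and Ccdc112 and had 17.2 ± 2.57 CPM (SD, n = 6) in wild type and 15.5 ± 3.24 in knockout, a log2 fold change of -0.13 ± 0.16 (SE) with overlapping genotypes. Fem1c, on the other side of Ccdc112, had 0.13 ± 0.15. Lars, next to Rbm27, had 0.43 ± 0.26. Dcp2, next to Myot, had -0.03 ± 0.12. Dmxl1 and Hsd17b4, on either side of Tnfaip8, had 0.11 ± 0.24 and 0.00 ± 0.25. The genotypes overlapped for each of these flanking genes.

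Within 10 Mb of Gpr151, 97 genes outside the protocadherin clusters were tested, members included and Gpr151 left out. None of the 97 was called by edgeR, and DESeq2 called 2, beside 0.0140% and 0.0838% of all genes. An unadjusted edgeR p under 0.05, whose share over all genes is not given here, was reached by 8, of which 5 are the picked genes. One under 0.01 was reached by 4, beside 0.503% of all genes. For 3 genes, 3.09%, the genotypes did not overlap, beside 0.147% of all genes. These 4 and these 3, like the 2 of DESeq2, are all picked genes, so nothing is read from their share. Nor is anything read from the 8. Over the 97 genes the median log2 fold change was -0.01 and the median absolute one 0.13, against 0.00 and 0.12 over all genes tested. Apart from the members, 88 remain, of which none was called by either tool and 3 had an unadjusted edgeR p under 0.05. That remainder was left by taking out the genes of small p, so its low counts are no result. By absolute log2 fold change among these 97 genes, Myot ranked 1, Ccdc112 6, Trim36 7, Tnfaip8 8 and Ppp2r2b 9, and the comparison genes 25 to 80. Neighbours that were not picked held the ranks between Myot and Ccdc112. The 5 genes were picked on this contrast, so nothing is read from their ranks. Just inside the 10 Mb limit, Srfbp1 had -0.08 and Wdr36 0.08, and just outside it Gykl1 had 0.33 and A830052D11Rik -0.34.

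**Figure D5:**
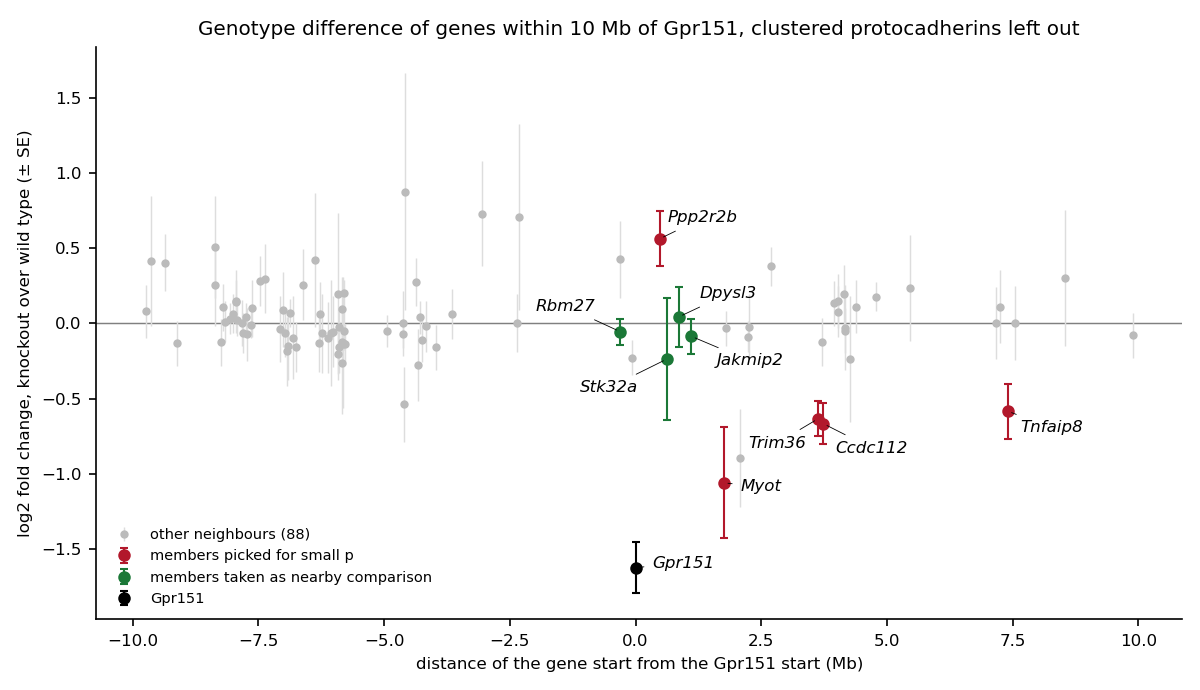
Log2 fold change between genotypes against the distance of each gene's start from that of Gpr151 in Mb, with members and Gpr151 marked among the 88 other neighbours and bars of 1 SE. The 5 picked genes lie between 0.480 and 7.40 Mb on the higher-coordinate side.

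Paralogues on other chromosomes were not chosen on these values. Of 22 listed, 21 were tested, and none was called by edgeR or DESeq2, beside 0.0140% and 0.0838% of all genes. With shares this low, 0 calls is no result about the list. An unadjusted edgeR p under 0.05, whose share over all genes is not given here, was reached by 1. That was Dpysl4, a relative of Dpysl3, with 18.1 ± 2.47 CPM (SD, n = 6) in wild type and 14.1 ± 3.45 in knockout, a log2 fold change of -0.34 ± 0.15 (SE). The microtubule-associated ligases Trim9 and Trim67, relatives of Trim36, had 0.31 ± 0.16 and 0.35 ± 0.18. The median over the list was 0.04. The B-subunit genes Ppp2r2a, Ppp2r2c and Ppp2r2d, relatives of Ppp2r2b, averaged 143, 452.8 and 35.0 CPM in wild type and 154.4, 430.6 and 36.4 in knockout, and none passed.

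The other genes of PP2A, its catalytic, scaffold and further regulatory subunits and its methylation enzymes, were nearly level between the genotypes. Of 18 tested, none was called by either tool, beside 0.0140% of all genes in edgeR and 0.0838% in DESeq2. With shares this low, 0 calls is no result about these genes. None had an unadjusted edgeR p under 0.05, whose share over all genes is not given here, so this is no result either. The log2 fold changes of the 18 ran from -0.08 to 0.15, with a median of -0.02. Their median absolute value was 0.07, against 0.12 over all genes tested. Strn, a striatin subunit, had 0.14, and Ppp2r5a and Ppp2r5c, of the B56 family, had 0.15 and -0.07.

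For each member, the gene most alike over the 12 IP libraries was found by Pearson's r of log2 CPM among 14316 genes, after the means of the library sets were removed. This is a description: the libraries share genotype, marker content and depth, and the highest of many correlations is high by its choice. For Trim36 the gene most alike was Gpr151 itself, at r = 0.93. Genotype was not removed from these values and the picked genes were chosen on it, so nothing is read from this. The r with Gpr151 was 0.89 for Ccdc112, 0.89 for Tnfaip8, 0.83 for Myot and -0.79 for Ppp2r2b. For the comparison genes it ran from -0.20 for Dpysl3 to 0.35 for Rbm27. Tnfaip8 was most like Vmn2r29 (r = 0.96). Ccdc112 was most like Ccdc174 (r = 0.96), Ppp2r2b like Cacng2 (r = 0.98), Myot like Gm6548 (r = 0.87) and Stk32a like Myzap (r = 0.93). Dpysl3 was most like Ddb1 (r = 0.99), Jakmip2 like Rab15 (r = 0.95) and Rbm27 like Fnbp4 (r = 0.96).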

How the data were processed

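Each library's table, as the authors deposited it, held raw counts by gene symbol. The submitters' processing notes name STAR 2.3.0e, HTSeq, DESeq2 and mm10; annotation and strand setting are not given in the sources used. The RNA had been amplified (Ovation V2, per the labels' protocols). Summary lines without a gene entered neither library sizes nor tests; reads outside genes were 9.44% to 16.6% of alignments per IP library.

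The members and gene lists were chosen with earlier results of these data known. The 14317 genes past filterByExpr (minimum count 10, minimum total 15) of edgeR 4.0.16 (R 4.3.3) were scaled by TMM and fitted with the robust quasi-likelihood test, with library set as covariate for genotype, two-sided, Benjamini-Hochberg adjusted, threshold 0.05. DESeq2 1.42.0 was an alternative. The steps were tested on simulated data. CPM used the 23857 symbols shared by the IP libraries, or the 22682 shared by all 13 for the input. The input rule of size added a pseudocount of 1. Positions and exon lengths came from GENCODE M21 (GRCm38). Named genes were the members, Gpr151, the nearest tested gene on each side of each member, up to 3 per list with the smallest p, and the gene most alike; those named outside it (other B-subunit genes, marker genes, window edges) illustrate a list. For 1 gene under this rule the result is not reported here. Replicates are separate pools of mice. Alternatives covered scaling, filters, the set term, the marker covariate, subsets of libraries, pseudocount and each library left out. No sequence is printed.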

Additional observations from a re-analysis of the deposited data

Results flagged for a closer look

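In 20 groups of 6 libraries (the 9 genes and Gpr151 in each genotype), 2 held a library whose gap to its nearest neighbour exceeded Dixon's critical value of 0.625 of the group's range. Chance flags about 1 in 20 such groups. Ccdc112 had 4.849 CPM in knockout library 855, where the next lowest knockout library had 8.26 and the highest 10.3. Without its set, libraries 852 and 855, the log2 fold change between genotypes was -0.61, against -0.67 with all libraries. Tnfaip8 had 6.003 CPM in wild-type library 682, where the next highest wild-type library had 4.47 and the lowest 3.72. Without its set, libraries 682 and 683, the log2 fold change was -0.54, against -0.58 with all libraries. Each of these sets has 1 library per genotype, so the model with the set term cannot give the effect of leaving out 1 of them alone.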

How the results depend on the processing

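The genotype direction of the 5 picked genes, which their choice largely fixes, held in all 22 alternatives; sign changes occurred only for Dpysl3 (7 alternatives), Jakmip2 (1) and Rbm27 (1). In the 4 earlier libraries alone Ccdc112 was at -0.94 and Myot at -1.88. Genes called between genotypes numbered 2 in edgeR, 12 with DESeq2, 1 with a filter of 1 CPM in 6 libraries, 0 in the 8 later libraries alone, 1 without the 3 libraries of highest marker level (chosen after seeing the data), and 0 to 2 with each library left out, the 0 without library 683. Genes at an unadjusted p under 0.01 numbered 72, and 35 to 208 over the alternatives. Library set calls were 3343, 482 with the marker covariate and 465 (without library 855) to 4476 (without library 1100) with each left out. Interaction calls were 0 in edgeR and 2 with DESeq2. The cause was not tested. Paralogues, PP2A genes and other neighbours had 0 calls in all 22 alternatives, and IP-enriched genes numbered 389 to 703 around 538. Myot and Stk32a are limited by 15 to 127 reads per library. The set term blocks 682 with 683 and 852 with 855; without it genotype calls were 2 and genes at an unadjusted p under 0.01 were 35, and the picked genes had values from -0.998 for Myot to 0.56 for Ppp2r2b.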

Other observations

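The 3 other neighbours with an unadjusted edgeR p under 0.05 are given as values; they were singled out after their values were seen, and none passed adjustment (adjusted p = 0.999 for each). A930012L18Rik, a transcript 2.08 Mb from Gpr151 between Myot and Trim36, had 2.70 ± 0.425 CPM (SD, n = 6) in wild type and 1.56 ± 0.945 in knockout, a log2 fold change of -0.90 ± 0.33 (SE). Kcnn2, which encodes the SK2 calcium-activated potassium channel and is the nearest tested gene on the lower-coordinate side of Trim36, had 23.5 ± 2.42 CPM in wild type and 30.7 ± 8.02 in knockout, a log2 fold change of 0.38 ± 0.13 (SE). Hars, the histidyl-tRNA synthetase on the other side of Gpr151, had 75.9 ± 5.30 CPM in wild type and 86.2 ± 9.80 in knockout, a log2 fold change of 0.20 ± 0.09 (SE). The genotypes overlapped for all 3.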
